A study of Mus musculus with 6 samples.

Results

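Slc12a2, Slc12a4, Slc12a5 and Slc12a7 encode cation-chloride cotransporters and were described here across the cell classes of the postnatal mouse forebrain. The 4 genes were taken by symbol from the 32285 genes of a single-nucleus RNA sequencing matrix. Slc12a2 encodes NKCC1, which brings sodium, potassium and chloride into the cell together. Slc12a4, Slc12a5 and Slc12a7 encode KCC1, KCC2 and KCC4, which carry potassium and chloride out.

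These carriers set the chloride level inside a cell and take part in volume regulation. In neurons, KCC2 keeps chloride low, so that opening of GABA-A receptors lets chloride in and inhibits the cell, whereas young neurons rely more on NKCC1 and hold more chloride. NKCC1 is also found in glia, in vessels and at the surface of the choroid plexus, the epithelium that makes cerebrospinal fluid. WNK kinases act through SPAK and OSR1 to switch NKCC1 on and the KCC proteins off.

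The libraries came from flash-frozen forebrains, taken at postnatal day 16 and not treated, of 3 wild-type (WT) mice and 3 Npc1-/- mice, which lack the lysosomal cholesterol transporter NPC1. Npc1-/- mice were F1 hybrids carrying the Npc1nih allele on BALB/cJ and C57BL6/J backgrounds, and the WT mice were littermates. The joined matrix separates 6 libraries by barcode suffix, but no label ties a suffix to a mouse or a genotype. WT and Npc1-/- nuclei therefore could not be told apart, and the libraries are given as 6 unassigned samples, numbered 1 to 6 by suffix, with no test between them.

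The matrix held 75878 barcodes and 497750379 unique molecular identifiers (UMIs, 1 per captured RNA molecule). Libraries held between 8217 and 16118 barcodes, where the design text names about 10000 per sample, with median depths between 4469 and 5439 UMIs. After 11 nuclei with at least 10% mitochondrial UMIs were removed, 19280 of 75867 nuclei (25.4%) passed a gate of 84 marker genes for 1 of 16 classes. A further 40300 carried markers of more than 1 class and 16287 passed no class. The gated share ran from 20.3% to 36.1% by library and was highest in libraries 5 and 6. For 4 further markers per class that the gate did not use, levels were set against the median of the other classes of at least 50 nuclei. All 4 were at least 2-fold above it in 11 classes, and 3 were in OPC, pericyte and Cajal-Retzius nuclei. Only 2 were in excitatory neurons (Camk2a and Mef2c, with Neurod6 at 1.64-fold and Nptx1 at 1.56-fold) and 2 in neuroblasts (Dlx1 and Meis2). Both classes thus carry their names from their gates. Across libraries, 631 barcode sequences recurred, which touched 321 gated nuclei. A second gate, added after the values were seen and called the enrichment gate, took 24070 nuclei. Both gates put 91.1% of the 7080 nuclei they shared in the same class, but most nuclei of either gate were not in the other. Excitatory neurons were 6454 of 8627 mature neurons in the first gate, called the marker gate. In the enrichment gate they were 1172 of 6358, beside 3090 interneurons. OPC were 1312 of 8262 glia in the marker gate and 4140 of 13353 in the enrichment gate. Ratios over neurons or glia thus rest on unlike mixes of nuclei in these gates.

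Slc12a5 (ENSMUSG00000017740) lies at chr2:164960802-164999731 on the plus strand of GRCm38, with 7447 bases of exons in the GENCODE annotation. Slc12a7 (ENSMUSG00000017756) lies at chr13:73733094-73816754 on the plus strand, with 12669 exon bases. No other annotated gene overlaps either of them. Slc12a4 (ENSMUSG00000017765) lies at chr8:105943590-105966097 on the minus strand, with 4279 exon bases, and shares 361 of them with the antisense gene Gm16156. No source used here states whether the counting used strand, so reads from that stretch may belong to either gene.

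The RefSeq promoter windows of the 3 KCC genes, 300 bases each on GRCm38.p6, are shown because their genes had unlike levels in neurons: the pooled level of Slc12a5 was highest in neuronal classes, by a margin over glia that was not called, and Slc12a4 and Slc12a7 were low there. Capitals mark the GC box, searched as GGGCGG and its complement CCGCCC. Slc12a5 has an upstream and a downstream window, at chr2:164960596-164960895 and chr2:164967738-164968037, both on the plus strand. The Slc12a4 window is chr8:105966066-105966365 on the minus strand, and the Slc12a7 window, which starts inside the GENCODE gene body, is chr13:73763410-73763709 on the plus strand.
Slc12a5, upstream start: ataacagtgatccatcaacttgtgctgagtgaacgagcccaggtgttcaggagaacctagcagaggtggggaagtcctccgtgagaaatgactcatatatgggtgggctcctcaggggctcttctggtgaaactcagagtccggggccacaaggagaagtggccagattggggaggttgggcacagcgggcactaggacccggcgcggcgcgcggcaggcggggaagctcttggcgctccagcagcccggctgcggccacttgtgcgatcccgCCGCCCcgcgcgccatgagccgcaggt
Slc12a5, downstream start: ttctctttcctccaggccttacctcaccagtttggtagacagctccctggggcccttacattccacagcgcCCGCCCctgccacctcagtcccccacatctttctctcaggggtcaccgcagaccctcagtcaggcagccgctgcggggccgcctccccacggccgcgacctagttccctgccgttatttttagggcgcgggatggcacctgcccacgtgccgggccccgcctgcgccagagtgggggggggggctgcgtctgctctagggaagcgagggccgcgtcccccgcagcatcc
Slc12a4: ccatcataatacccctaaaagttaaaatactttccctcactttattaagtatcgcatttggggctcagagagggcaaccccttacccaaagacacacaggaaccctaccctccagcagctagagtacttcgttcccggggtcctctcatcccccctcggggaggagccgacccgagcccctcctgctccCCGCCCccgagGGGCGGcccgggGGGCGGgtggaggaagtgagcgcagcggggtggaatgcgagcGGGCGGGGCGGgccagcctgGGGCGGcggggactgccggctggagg
Slc12a7: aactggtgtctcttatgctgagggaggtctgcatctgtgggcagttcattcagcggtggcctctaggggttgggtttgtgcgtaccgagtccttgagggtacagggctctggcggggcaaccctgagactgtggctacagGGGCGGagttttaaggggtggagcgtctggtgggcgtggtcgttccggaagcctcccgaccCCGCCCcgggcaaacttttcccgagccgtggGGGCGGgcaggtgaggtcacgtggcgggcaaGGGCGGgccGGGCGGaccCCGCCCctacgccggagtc

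Each Slc12a5 window holds 1 GC box, whereas Slc12a4 and Slc12a7 hold 6 each, with 1 overlapping pair in Slc12a4. Of 32851 RefSeq windows of the same length, 35.7% hold at least 1 GC box and 1.35% hold at least 6. The downstream Slc12a5 window and the Slc12a7 window each hold 1 CACGTG E-box, a motif that reads the same on both strands and occurs in 7.15% of windows. None of these windows holds TATAAA on either strand, which 13.6% of windows do. A match is a run of letters and says nothing of which factor binds there. A second Slc12a7 window overlaps the one shown, and no window is printed for Slc12a2.

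Slc12a2 was highest in choroid plexus and in mature oligodendrocytes, intermediate in pericytes, immature oligodendrocytes and microglia, and low in every neuronal class. Levels are CPM, the UMIs of a gene in every 1000000 UMIs of the class, with exact Poisson intervals at 95%, which cover counting error only. The choroid plexus gate (74 nuclei) held 478 CPM (407 to 558), with libraries between 294 and 672 and a median of 497. The 535 mature oligodendrocytes, the myelinating cells, held 474 CPM (447 to 503), with libraries between 348 and 551 and a median of 445. The intervals of these classes overlapped, and every library of either class stood above every library of the 8627 mature neurons. Those neurons, the excitatory, thalamic, striatal projection and interneuron classes together, held 53.3 CPM (51.6 to 55.1), with libraries between 50.2 and 55.3 and a median of 53.5. The gene (ENSMUSG00000024597) lies at chr18:57878678-57946821 on the plus strand, with 10920 exon bases and no overlapping gene.

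Pericytes, the contractile cells that wrap capillaries, came next at 216 CPM (188 to 246), followed by immature oligodendrocytes at 191 CPM (173 to 211). Microglia, the resident immune cells, held 141 CPM (129 to 155). Below them, oligodendrocyte progenitors (OPC) held 76.6 CPM and endothelial nuclei 70.7 CPM, and the remaining classes ran from 61.1 CPM in fibroblasts to 42.2 CPM in thalamic neurons. In this order, the intervals of neighbouring classes were apart below mature oligodendrocytes, below immature oligodendrocytes and below microglia, and overlapped elsewhere. The enrichment gate set pericytes apart from immature oligodendrocytes, at 349 CPM (325 to 373, 561 nuclei) against 145 CPM (137 to 153, 1662 nuclei), and the latter then overlapped microglia at 146 CPM (137 to 156). Acta2, 1 of the further markers used for the pericyte class, stood 56.2-fold above the median of the other classes in that gate. In the marker gate it stood at 1.23-fold. The pericyte class thus did not hold the same mix of nuclei in both gates. Whether the enrichment gate took pericytes alone was not tested, so 349 CPM is the level of its class and not of capillary pericytes as such.

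The share of nuclei with a Slc12a2 UMI was taken in 5 classes, which fell in the order of their levels once depth was matched. After each nucleus was thinned to 2000 UMIs, a UMI was present in 59.2% of choroid plexus nuclei, 57.5% of mature oligodendrocytes, 26.6% of immature oligodendrocytes, 14.8% of OPC and 10.3% of mature neurons. Without thinning these shares were 75.7%, 74.8%, 36.4%, 22.2% and 31.8%, at median depths of 4036, 3995, 3290.5, 2971 and 7192 UMIs. Unthinned, the deeper neurons thus stood above OPC. Thinning left out 3, 39, 70, 213 and 199 nuclei of these classes as too shallow. The thinned share in neurons, a class of low Slc12a2, is the level against which the others are read.

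**Figure D1:**
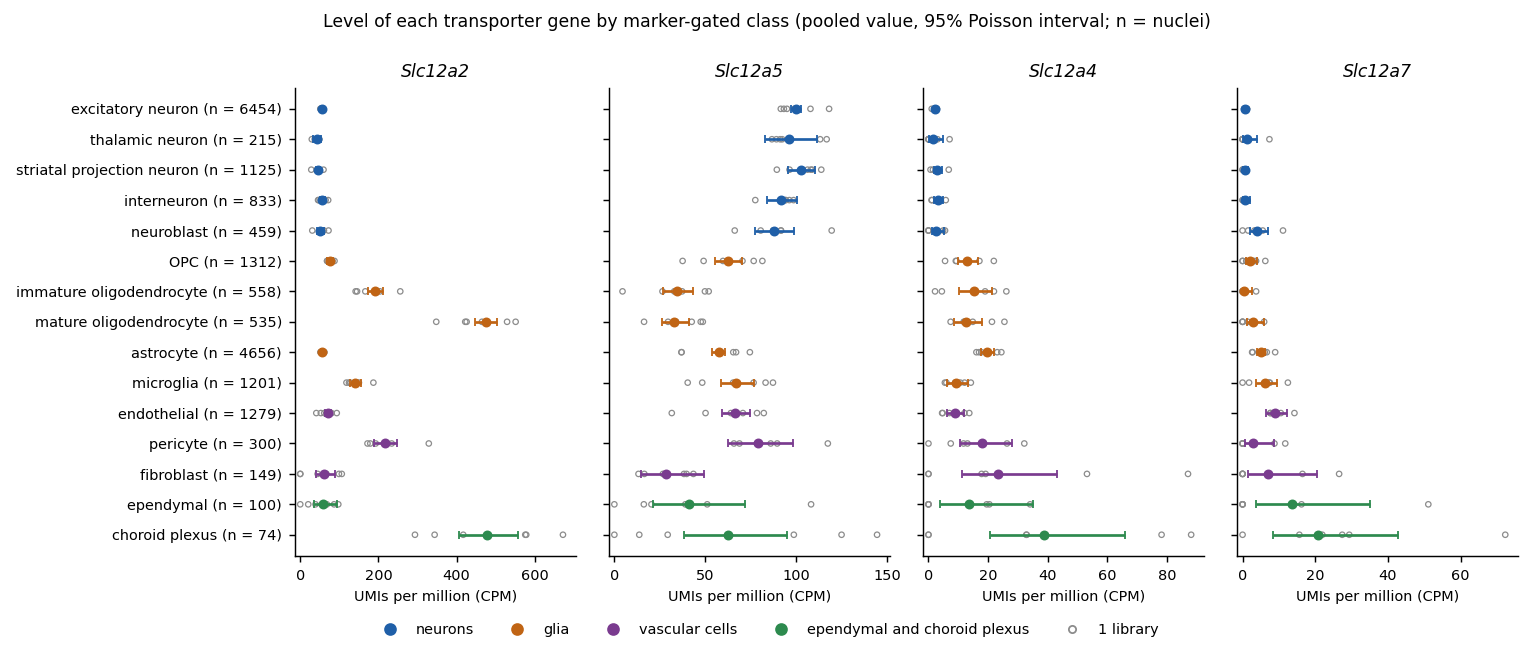
Level of each cotransporter gene in CPM (horizontal axis) in 15 classes of at least 50 nuclei, with pooled values as filled points, 95% Poisson intervals as bars and single libraries as open points. Slc12a2 reached 478 CPM in choroid plexus and 474 CPM in mature oligodendrocytes against 53.3 CPM in mature neurons, whereas Slc12a5 was highest in the neuronal classes.

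Between classes, a gene was called where its pooled level differed past 2-fold, with the same sign in all 6 libraries, among genes with at least 50 UMIs in both classes together. In choroid plexus over mature neurons, Slc12a2 was called higher at a log2 ratio of 3.16 (2.93 to 3.39), or 8.96-fold, with libraries between 2.48 and 3.60. The same rule called 5.2% of all genes tested higher in choroid plexus, and the median of all genes was 0.49. Trimmed-mean scaling, which moves every gene of a pair of classes alike, lowered the ratio to 2.65 with the call kept, and the shares of all genes called higher and lower there were 2.89% and 24.0%. Slc12a4 (4.11, 3.17 to 4.93) and Slc12a7 (4.88, 3.49 to 6.03) had larger ratios there, from 13 and 7 UMIs, but were above neurons in 4 and 5 of 6 libraries and were not called. Slc12a5 stood at -0.67 (-1.37 to -0.06), below neurons in 3 of 6 libraries. Under the enrichment gate, with 243 choroid plexus nuclei, Slc12a4 was also called higher (3.89, with 14.0% of genes) and Slc12a5 lower (-1.03, with 11.0% of genes).

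Along the oligodendrocyte lineage, from progenitor to myelinating cell, Slc12a2 was higher at each step. OPC (1312 nuclei) ranged over libraries from 68.7 to 87.7 CPM with a median of 74.8, immature oligodendrocytes (558 nuclei) from 142 to 256 with a median of 180, and mature oligodendrocytes from 348 to 551. The libraries of the 3 stages did not overlap in the marker gate. Immature oligodendrocytes over OPC gave a log2 ratio of 1.32 (1.11 to 1.53), or 2.49-fold, with libraries between 0.69 and 1.82. Mature over immature oligodendrocytes gave 1.31 (1.15 to 1.48), or 2.48-fold, with libraries between 1.11 and 1.55. Both steps were called higher, as were 4.48% and 5.71% of all genes tested.

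The first step lost its call under the enrichment gate, where its ratio of 0.97 (0.86 to 1.07) fell short of 2-fold and where 3.97% of genes were called higher. All 6 libraries were above 0 there, at 1.23, 1.08, 0.43, 0.25, 1.17 and 0.59 in order of suffix. The stages overlapped there, with OPC libraries up to 84.6 CPM and immature oligodendrocytes from 83.4 CPM. In the marker gate the libraries stood at 1.12, 1.31, 0.69, 1.08, 1.82 and 1.49 in that order, so libraries ranked otherwise between the gates. Mature oligodendrocytes of the marker gate numbered 156, 149, 24, 22, 150 and 34 by suffix. They held 286, 313, 41, 40, 371 and 87 of the 1138 Slc12a2 UMIs of that class. The second step stood at 1.53 (1.44 to 1.62) under the enrichment gate and was called, as were 5.13% of genes. With the microglial level of 141 CPM subtracted from both stages it was 2.74. Microglia are not a class of low Slc12a2, and taking the same value from both stages can only raise this ratio. The value of 2.74 is therefore not a corrected size of the step. Slc12a5 went the other way at the first step, at -0.87 (-1.27 to -0.50) and lower in 6 of 6 libraries, without passing 2-fold, and stood at -0.06 (-0.53 to 0.43) at the second, or 0.10 under trimmed-mean scaling. RNA of 7 other neuronal genes, described with Slc12a5 in neurons, moved with it at the first step, from 2762 CPM in OPC to 1774 CPM in immature oligodendrocytes. Per 1000 UMIs of those genes, Slc12a5 stood at 22.7 (20.1 to 25.5) and 19.3 (15.1 to 24.3), which overlapped. Slc12a4 differed by 0.24 (-0.42 to 0.89) and -0.28 (-1.05 to 0.48) at these steps. Slc12a7 had under 50 UMIs in each pair of stages and was not tested.

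**Figure D2:**
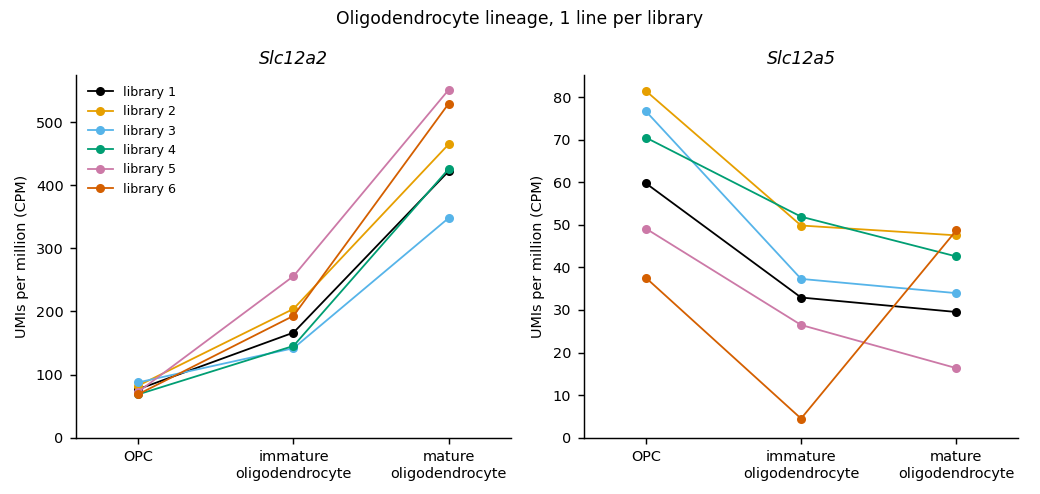
Levels in CPM (vertical axes) of Slc12a2, left, and Slc12a5, right, in OPC, immature and mature oligodendrocytes, with 1 line for each of the 6 libraries. Slc12a2 climbed in every library, from at most 87.7 CPM in OPC to at least 348 CPM in mature oligodendrocytes, and Slc12a5 was lower in immature oligodendrocytes than in OPC in all 6, a step at which 7 other neuronal genes together went from 2762 to 1774 CPM.

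Among other classes, Slc12a2 was higher in pericytes than in endothelial nuclei, at a log2 ratio of 1.61 (1.35 to 1.86), or 3.05-fold, a call that 1.51% of genes shared. Microglia stood above mature neurons at 1.41 (1.26 to 1.55) and were called, as were 19.7% of genes, but at 0.94 under trimmed-mean scaling were not. Vascular nuclei together (endothelial, pericyte and fibroblast, 1728 nuclei) stood at 0.84 (0.71 to 0.97) over neurons and were not called, but were called at 1.24 under the enrichment gate, where 26.9% of genes were. A difference between astrocytes and neurons was not detectable (0.05, -0.05 to 0.16), and its sign turned under the enrichment gate (-0.05) and under trimmed-mean scaling (-0.28). Mature neurons over glia gave -1.06 (-1.13 to -0.99) and a call of lower, as for 22.3% of genes. That call ended under trimmed-mean scaling, where the ratio was -0.66. That glial pool holds 4656 astrocytes among 8262 nuclei, so its level of 111 CPM averages the 55.3 CPM of astrocytes with the higher levels of oligodendrocytes and microglia.

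Slc12a5, the neuronal KCC2 gene, was highest in the neuronal classes, with a lead over glia that lay near 2-fold and crossed it with the setting. Striatal projection neurons held 103 CPM (95.5 to 110), excitatory neurons 99.8 CPM (97.2 to 102), thalamic neurons 96.4 CPM (82.7 to 112), interneurons 91.8 CPM (83.8 to 100) and neuroblasts 87.6 CPM (77.4 to 98.8). These intervals overlapped from each class to the next. Mature neurons together held 99.4 CPM (97.1 to 102), with libraries between 91.6 and 115 and a median of 97.4. Glia held 55.7 CPM (53.1 to 58.5), with libraries between 36.1 and 71.0 and a median of 61.1, so every library of neurons stood above every library of glia.

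The log2 ratio of mature neurons over glia was 0.84 (0.76 to 0.91), or 1.78-fold, with libraries at 0.77, 0.59, 0.66, 0.70, 1.35 and 1.34 in order of suffix. It was above 0 in 6 of 6 libraries and was not called, while 5.47% of genes were called higher in neurons. Neurons were deeper than glia, and the ratio was past 2-fold with each nucleus thinned to 2000 UMIs (1.02), in nuclei of 3000 to 6000 UMIs (1.13) and as a mean per nucleus (1.02). The median of all genes was -0.42, and 8.13% of genes had a ratio as high. Trimmed-mean scaling raised the ratio by 0.40 to 1.24, at which Slc12a5 was called higher, and then called 11.0% of all genes higher and 13.0% lower. Requiring gate and check markers together left 988 nuclei and gave 1.56. Without libraries 5 and 6 the ratio was 0.68, under the enrichment gate 0.78, without the deepest nuclei 0.90 and as a median over libraries 0.73. None of these was past 2-fold.

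Within glia, Slc12a5 ran from 67.1 CPM in microglia (58.4 to 76.6) and 62.7 CPM in OPC through 57.5 CPM in astrocytes to 34.2 CPM in immature oligodendrocytes (26.8 to 43.1) and 32.9 CPM in mature oligodendrocytes (26.1 to 41.0). Under trimmed-mean scaling Slc12a5 was called lower than in neurons in microglia (-1.03, with 13.7% of genes) and astrocytes (-1.12, with 10.8% of genes). In astrocytes it was also called lower under the enrichment gate (-1.04, with 10.5% of genes). Endothelial nuclei held 66.6 CPM (59.1 to 74.7), fibroblasts 28.2 CPM (14.6 to 49.2) and pericytes 79.2 CPM (62.8 to 98.5), an interval that overlapped those of all 5 neuronal classes. Mature oligodendrocytes, which should lack KCC2, thus held Slc12a5 UMIs in 64 of 535 nuclei, or in 6.25% after thinning, at a median depth of 3995 UMIs. In mature neurons the shares were 50.3% and 18.4%, at a median depth of 7192 UMIs. Glia together stood at 15.8% and 9.47%, at a median depth of 3029 UMIs.

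RNA of other neuronal genes moved with Slc12a5 across the non-neuronal classes. A panel of 7 neuronal genes (Snap25, Syt1, Rbfox3, Nrgn, Stmn2, Gabrb2 and Camk2b) summed to 5778 CPM in mature neurons, 2627 CPM in glia, 3422 CPM in vascular nuclei and 1450.0 CPM in mature oligodendrocytes. None of these genes was at 0 in any glial class. Per 1000 panel UMIs, Slc12a5 stood at 17.2 (16.8 to 17.6) in mature neurons, 21.2 (20.2 to 22.3) in glia, 19.3 (17.4 to 21.3) in vascular nuclei and 22.7 (17.9 to 28.4) in mature oligodendrocytes. Measured against that panel, Slc12a5 was thus no lower in glia than in neurons. In fibroblasts it was 10.6 (5.46 to 18.6), from 12 Slc12a5 UMIs, and 16.5 (13.4 to 20.2) from 97 UMIs under the enrichment gate.

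The panel was lowest in the glia of libraries 5 and 6, at 1969 and 2026 CPM, against 2506 to 3528 CPM in the glia of the other libraries. Slc12a5 in glia was also lowest there, at 36.9 and 36.1 CPM against 55.8 to 71.0 CPM. The part of free neuronal RNA in the glial Slc12a5 level was not tested. Slc12a5 in the immature oligodendrocytes ran from 4.49 CPM in library 6, from 1 UMI, to 51.9 CPM in library 4, from 10 UMIs. Under the enrichment gate library 6 stood at 53.1 CPM in that class, from 31 UMIs, and the libraries lay between 31.0 and 59.3 CPM.

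**Figure D3:**
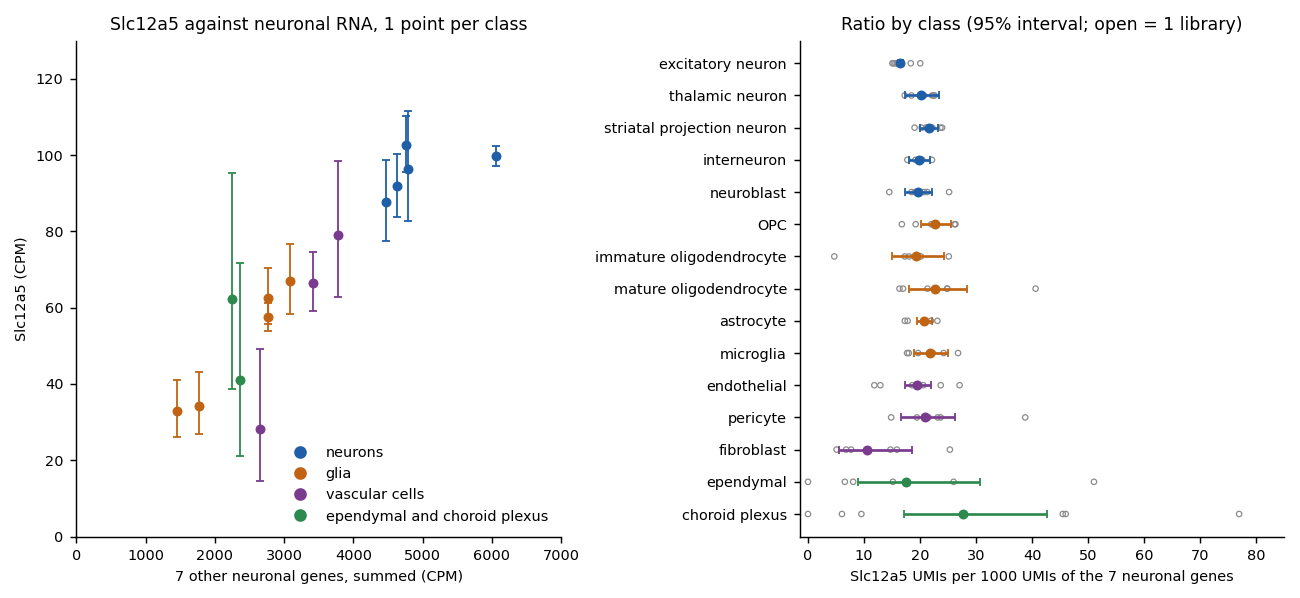
Left, Slc12a5 level against the summed level of 7 other neuronal genes, both in CPM, with 1 point per class and 95% Poisson intervals on Slc12a5. Right, Slc12a5 UMIs per 1000 UMIs of those genes by class, with 95% intervals and single libraries as open points. The ratio was 17.2 in mature neurons, from 16.5 in excitatory to 21.5 in striatal projection neurons, and 21.2 in glia.

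Slc12a4, the broadly expressed KCC1 gene, was low in neurons and higher in astrocytes, in glia as a whole, in microglia and in vascular nuclei. Astrocytes held 19.8 CPM (17.7 to 22.0, 345 UMIs), with libraries between 16.1 and 24.4 and a median of 18.6. Mature neurons held 2.24 CPM (1.90 to 2.62, 155 UMIs), with libraries between 1.17 and 2.92 and a median of 2.51. The libraries of these classes did not overlap. Astrocytes over neurons gave a log2 ratio of 3.14 (2.87 to 3.43), called higher as were 19.4% of genes. Glia together held 16.6 CPM (15.2 to 18.2), with libraries between 13.7 and 20.3 and a median of 15.8. Mature neurons over glia gave -2.90 and a call of lower, as for 22.3% of genes.

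The other glial classes ranged from 15.2 CPM in immature oligodendrocytes to 9.27 CPM in microglia, and the 4 mature neuronal classes from 3.07 CPM in interneurons to 1.62 CPM in thalamic neurons. Ordered by level, the 15 classes were apart at 1 place, between endothelial nuclei at 8.78 CPM (6.21 to 12.1) and interneurons at 3.07 CPM (1.76 to 4.99). The pooled level in choroid plexus was 38.6 CPM (20.5 to 66.0), but from 13 UMIs, with libraries between 0 and 88.1 CPM. After thinning, 4.03% of astrocytes and 0.534% of mature neurons had a Slc12a4 UMI, against 6.85% and 1.69% before it. The Slc12a4 UMIs of astrocytes were 9.51% of all Slc12a4 UMIs in the matrix, in nuclei that held 3.51% of all UMIs.

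In vascular nuclei, Slc12a4 stood at 11.5 CPM (8.86 to 14.6), with libraries between 5.79 and 18.7 and a median of 9.62. The log2 ratio over mature neurons was 2.36 (1.92 to 2.78), or 5.12-fold, with libraries between 1.13 and 3.05. It was called higher, as were 20.0% of genes. Among vascular classes, pericytes (17.8 CPM, 18 UMIs) stood above endothelial nuclei (8.78 CPM, 38 UMIs) at 1.02 (0.12 to 1.87), in 4 of 6 libraries, without a call. Microglia over neurons gave 2.05 (1.44 to 2.62) and a call of higher, as for 19.7% of genes. Restricted to nuclei with 3000 to 6000 UMIs, the ratio of vascular nuclei over neurons was 1.23.

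Slc12a7, the KCC4 gene, was the sparsest member, with 1512 UMIs in all 75867 nuclei, and was low in mature neurons. Endothelial nuclei, which line the vessels, held 9.01 CPM (6.41 to 12.3) from 39 UMIs, with libraries between 7.60 and 14.3 and a median of 8.74. Mature neurons held 0.707 CPM (0.523 to 0.934) from 49 UMIs, with libraries between 0.438 and 1.22 and a median of 0.527. The libraries of these groups did not overlap. Vascular nuclei together held 7.81 CPM (5.70 to 10.4) and stood above neurons at a log2 ratio of 3.47 (2.85 to 4.08), or 11.0-fold. Libraries lay between 2.30 and 4.42, and the gene was called higher, as were 20.0% of genes.

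Astrocytes held 5.10 CPM (4.09 to 6.27, 89 UMIs), above neurons at 2.85 (2.33 to 3.38), with a call that 19.4% of genes shared. Microglia held 6.18 CPM (20 UMIs) and stood at 3.13 (2.30 to 3.91) over neurons in 5 of 6 libraries, so the call rule was not met. Under the enrichment gate all 6 libraries were above 0 in microglia and the ratio of 2.56 was called, as for 20.0% of genes. Neuroblasts held 3.97 CPM from 12 UMIs, at 2.49 (1.44 to 3.42) over mature neurons in 5 of 6 libraries, where 0.50% of genes had a ratio as high. In choroid plexus 20.8 CPM (8.35 to 42.8) rested on 7 UMIs, and in ependymal nuclei 13.7 CPM (3.73 to 35.1) on 4 UMIs. Pericytes and fibroblasts held 3 UMIs each and immature oligodendrocytes 1 UMI, so an order among these classes was not detectable at this depth. The enrichment gate, with more nuclei, gave 16.8 CPM in fibroblasts (40 UMIs), 14.1 CPM in ependymal nuclei (45 UMIs), 11.5 CPM in endothelial nuclei (101 UMIs) and 9.98 CPM in choroid plexus (14 UMIs).

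The balance of Slc12a2 and Slc12a5 is given as the Slc12a2 share of the UMIs of both genes. How well the RNA of each gene was captured was not measured. The share is therefore read between classes and not as more of one carrier than the other. It was lowest in mature neurons, at 34.9% (exact binomial interval 34.0% to 35.8%), with libraries between 31.3% and 37.7%. Striatal projection neurons stood at 30.1%, thalamic neurons at 30.5%, excitatory neurons at 35.4% and interneurons at 37.8%. Astrocytes stood at 49.0% (46.8% to 51.3%), endothelial nuclei at 51.5% and OPC at 55.0% (51.1% to 58.9%).

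Microglia stood at 67.8% and pericytes at 73.2%. The share was highest in immature oligodendrocytes at 84.8% (81.3% to 87.9%), choroid plexus at 88.5% (82.9% to 92.7%) and mature oligodendrocytes at 93.5% (92.0% to 94.8%). Over libraries these classes ran from 73.7% to 97.7%, from 73.3% to 100% and from 90.7% to 97.1%, all above every library of mature neurons. The denominator in non-neuronal classes includes the Slc12a5 UMIs described beside the neuronal panel.

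Neuroblasts, the young migrating neurons, were the class in which a neonatal balance could be looked for. In the 459 nuclei of the marker gate the share was 37.1% (32.4% to 41.9%), with libraries between 31.8% and 40.7%, which overlapped those of mature neurons. The log2 of the Slc12a2 to Slc12a5 ratio differed from that of mature neurons by 0.13 (-0.16 to 0.43), with libraries between -0.38 and 0.42 and 5 of 6 above 0. A difference was not detectable in these nuclei, and the interval allows one of up to 0.43. Neither gene was called on its own, with Slc12a2 at -0.05 (-0.29 to 0.18) and Slc12a5 at -0.18 (-0.36 to -0.01), where 3.13% of genes were called higher and 2.72% lower.

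The result depended on which nuclei were taken as neuroblasts. Under the enrichment gate 148 nuclei passed, all 4 further neuroblast markers were at least 2-fold up, and the Slc12a2 share was 50.3% (42.0% to 58.7%), from 63.2 CPM of Slc12a2 and 62.4 CPM of Slc12a5. The mature neurons of that gate stood at 37.2% (36.2% to 38.2%), so these intervals were apart, and the neuroblast share was the higher in 6 of 6 libraries, at 37.8% to 100% against 33.9% to 39.1%. Single neuronal classes were closer. Interneurons at 42.0% (40.5% to 43.5%), thalamic neurons at 37.8% (32.6% to 43.3%) and Cajal-Retzius nuclei at 43.3% (37.7% to 49.0%) overlapped the neuroblast interval. Excitatory neurons at 37.7% (35.8% to 39.7%) and striatal projection neurons at 27.9% (26.1% to 29.8%) did not. In library 2 interneurons stood above neuroblasts, at 44.5% against 43.75%. The difference from mature neurons was then 0.78 on the log2 scale, from 74 Slc12a2 and 73 Slc12a5 UMIs in neuroblasts, and the share of 100% rests on 3 UMIs. In the marker gate, Tubb3 and Nrep, genes of young neurons, stood at 1.22-fold and 1.21-fold over the median of the other classes.

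**Figure D4:**
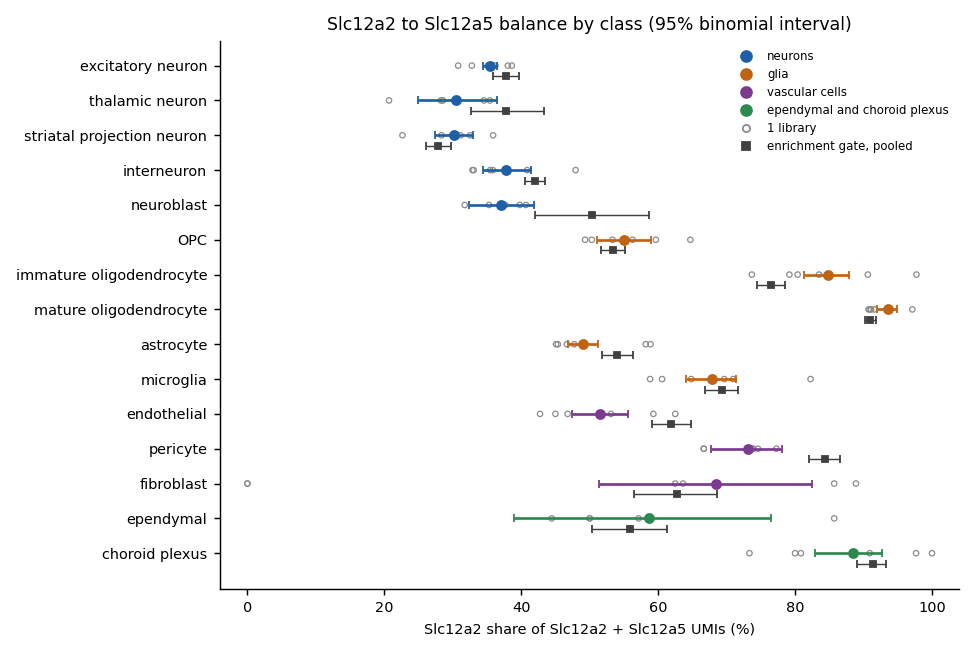
Slc12a2 share (%) of the summed Slc12a2 and Slc12a5 UMIs in 15 classes, with filled points and 95% binomial intervals for the marker gate, open points for single libraries and squares for the enrichment gate. Mature oligodendrocytes stood at 93.5% and neuroblasts at 37.1%, or 50.3% under the enrichment gate.

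The surrounding pathway was followed through 25 genes: 4 further Slc12 family members, 8 WNK and SPAK/OSR1 kinases and scaffolds, 4 KCC2 partners and 9 genes of chloride and bicarbonate transport. In mature oligodendrocytes over immature ones, where Slc12a2 was called higher, 4 of 20 genes tested were called higher and 2 lower, beside 5.71% and 6.47% of all genes. Wnk1, the kinase at the head of the cascade, stood at 682 CPM against 270 CPM (1.33, 1.20 to 1.47), and Stk39, which encodes SPAK, at 298 CPM against 143 CPM (1.06, 0.86 to 1.26). Car2, a carbonic anhydrase, and Slc4a2, an anion exchanger, were higher by 2.37 and 2.09. Slc4a8, a sodium bicarbonate carrier, was lower by a log2 ratio of -1.89. These 5 calls held under the enrichment gate and under trimmed-mean scaling. Wnk2 (52.1 against 105 CPM) was called lower in the marker gate alone, at -0.75 and -0.84 under those alternatives. The median ratio of the list was -0.08, beside -0.15 over all genes.

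At the preceding step, from OPC to immature oligodendrocytes, 1 of 21 genes was called higher (Slc4a8, 1.14) and 1 lower (Neto2, a partner of KCC2, -1.24), beside 4.48% and 6.48% of all genes. Neither call held under the enrichment gate, with Slc4a8 at 0.97 and Neto2 at -0.71. Wnk1 (0.21, 0.06 to 0.36) and Stk39 (0.06, -0.14 to 0.26) were not called at that step, at which Slc12a2 was.

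In choroid plexus over mature neurons, 5 of 25 genes were called higher, beside 5.2% of all genes. Stk39 stood at 2660 CPM (2489 to 2840) against 152 CPM, with libraries between 1997 and 4313 CPM. Its scaffold relative Cab39l stood at 686 CPM against 38.3 CPM. Slc4a10 (2.70), Slc4a2 (4.99) and Car2 (3.31), which move bicarbonate or form it, were also called. All 5 calls held under the enrichment gate, where 14.0% of all genes were called higher, and under trimmed-mean scaling, where 2.89% were. Oxsr1, which encodes OSR1, had 2 UMIs in choroid plexus. In the 74 nuclei 6 list genes met the rule for lower, as did 19.1% of all genes. Of these, Slc12a1, Slc12a3 and Slc12a8 had 0 UMIs in choroid plexus, and since 3 UMIs there amount to more CPM than neurons held of any of them, no fold is given. Car7 (-3.33, from 1 UMI), Clcn2 (-2.01, from 2 UMIs) and Ttyh1 (-1.42, from 13 UMIs) kept the call under trimmed-mean scaling. That scaling called 5 further list genes lower, as it did 24.0% of all genes. For Car7 and Clcn2 most libraries held 0 UMIs in choroid plexus, which the rule counts as lower, so the size of their ratios is uncertain. The enrichment gate called 4 list genes lower, beside 11.0% of all genes. Car7 (-1.59) was called there, and Clcn2 (-0.54) and Ttyh1 (-0.51) were not.

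In pericytes over endothelial nuclei, 1 of 21 genes was called, Stk39, higher at 1.26 (1.05 to 1.47), in the same direction as Slc12a2. The same rule called 1.51% of all genes higher. Under the enrichment gate, whose pericyte class held another mix of nuclei, Stk39 stood at 1.66.

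In mature neurons over glia, 1 of 25 genes was called higher and 5 lower, beside 5.47% and 22.3% of all genes. Car2 (-2.08) and Slc4a2 (-1.51) were lower in neurons under both gates and under trimmed-mean scaling. The other calls depended on the setting. Car7, a neuronal carbonic anhydrase, was called higher at 30.0 against 9.83 CPM, but its ratio of 0.88 under the enrichment gate was not called. Under that gate Wnk1 (-0.98), Wnk4 (-0.57) and the chloride channel relative Ttyh1 (-0.97) lost their calls of lower, and trimmed-mean scaling left Wnk1 at -0.64 and Ttyh1 at -0.82. That scaling called Slc12a8 (1.08), Slc4a10 (1.25) and Clcn2 (1.06) higher in neurons, where it called 11.0% of all genes higher and 13.0% lower. Of these the enrichment gate called Slc12a8 (1.36), a call for which no share of all genes is given here.

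In vascular nuclei over neurons, 3 of 25 genes were called higher, Wnk4 (2.78), Car2 (1.62) and Slc4a2 (1.45), beside 20.0% of all genes, and these held under both alternatives. Car7 was called lower (-1.02), where 3.91% of all genes were, and stood at -0.83 without a call under the enrichment gate. That gate also called Wnk1 higher (1.02) and 5 other list genes lower, among them Neto2 (-1.52) and the kainate receptor gene Grik2 (-1.64), where 10.9% of all genes were. Trimmed-mean scaling turned the shares of all genes called higher and lower from 20.0% and 3.91% to 12.2% and 9.63%.

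In astrocytes over neurons, 4 of 25 genes were called higher and 1 lower, beside 19.4% and 5.8% of all genes, which trimmed-mean scaling moved to 11.9% and 10.8%. Car2 (2.31) and Ttyh1 (1.70) were higher and Car7 (-1.47) lower under both alternatives as well. Wnk4 lost its call under the enrichment gate, higher in 5 of 6 libraries, and Slc4a2 under trimmed-mean scaling, at 0.85. The enrichment gate called 6 genes lower in place of 1, beside 10.5% of all genes in place of 5.8%, again with Neto2 (-1.29) and Grik2 (-1.07) among them.

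In microglia over mature neurons, 4 of 25 genes were called higher and 2 lower, beside 19.7% and 6.09% of all genes, which trimmed-mean scaling moved to 9.98% and 13.7%. Slc12a9, a family member of uncertain transport function, stood at 56.9 CPM in microglia against 12.9 CPM in neurons (2.14, 1.91 to 2.37). It, Wnk1 (1.79) and Slc4a2 (1.89) were called under both alternatives, whereas Car2 fell to 0.82 under trimmed-mean scaling. Car7 (-1.47) and Clcn2, a chloride channel gene (-1.14), were called lower but stood at -0.39 and -0.28 under the enrichment gate, which called 3 other list genes lower, where 6.25% of all genes were. Trimmed-mean scaling called 8 further list genes lower, among them Stk39 (-1.28) and Wnk2 (-1.29).

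In neuroblasts over mature neurons, 1 of 25 genes was called higher and 2 lower, beside 3.13% and 2.72% of all genes, or 2.11% and 4.16% under trimmed-mean scaling. Car7 was lower (-1.55) and kept its call under both alternatives. Wnk3 (1.00, 0.75 to 1.24) stood at 0.74 under the enrichment gate and 0.80 under trimmed-mean scaling, without a call. Clcn2 (-1.05) turned to 0.49 under the enrichment gate.

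Across the 15 classes, the genes whose log2(CPM + 1) followed each member most closely were taken from 10151 genes with at least 1000 UMIs in gated nuclei, by Pearson's r over classes. For Slc12a2 they were Plcl1 (0.94), Brix1 (0.89), Actl6a (0.87), Cic (0.87) and Smarca5 (0.86). For Slc12a5 they were Ksr2 (0.96), Clvs2 (0.95), Gm32250 (0.94), Rtl1 (0.94) and Jade3 (0.94). For Slc12a4 they were Hist1h2bc (0.94), Ak3 (0.94), Gde1 (0.93), Smim4 (0.92) and Tm2d3 (0.92), and for Slc12a7 Gm44899 (0.92), Btbd7 (0.91), M6pr (0.91), Golph3 (0.91) and Tor1aip1 (0.90). Classes share libraries and differ in depth, and these values are a description of the pattern alone.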

How the data were processed

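Nuclei of 6 forebrains were sequenced with 10x Chromium 3' chemistry. The authors deposited 1 joined matrix of raw UMI counts per gene and nucleus. The labels name Cell Ranger 2.1.1 and mm10, the matrix header names Cell Ranger 6.0.0, and the methods of the study name STARsolo and GRCm38, so the counting tool behind the matrix is uncertain. The methods state that doublets were removed by a caller; none was run here, and gated nuclei could carry at most 1 marker of another class. Nuclei with at least 10% mitochondrial UMIs were removed. A nucleus passed a class with at least 2 distinct markers and 3 marker UMIs of it and at most 1 distinct marker of any other class. Depth ranged from 51343653 to 107583300 UMIs per library. UMIs were summed per class and scaled to CPM. Ratios between classes were taken pooled and within each library and carry exact binomial counting intervals. The log2 difference in balance between neuroblasts and mature neurons carries a normal approximation instead. The libraries are samples of no known group, so they were not tested as replicates and no p-value is given; a negative log2 ratio means lower in the class named first. Cells are not replicates, and no test across them was run. Shares of nuclei with a UMI were computed after thinning to 2000 UMIs (seed 1). Genes named by rule were the 4 members, the list genes called and the 5 genes most alike to each member; the neuronal panel, the check markers and Oxsr1, chosen after its values were seen, are also named. Some genes of the lists are not reported here. The members, lists and markers were chosen with earlier results of these data known. The call step recovered 191 to 200 of 200 changed genes in each comparison on simulated data. Sparse members could still miss a call at a large ratio, as Slc12a7 did in choroid plexus over neurons (4.88, from 7 UMIs). The absence of a call for such genes does not mean that no difference exists. Alternatives were trimmed-mean scaling (edgeR 4.0.16, R 4.3.3), other gates, depth limits, other UMI minimums and leaving out each library. Python 3.11.15, pandas 2.3.3, numpy 2.4.6 and scipy 1.17.1 were used. No column of per-sample values was left unused (0).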

Additional observations from a re-analysis of the deposited data

Results flagged for a closer look

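The nuclei that passed no class gate, or carried markers of more than 1 class, held most UMIs of each member and enter no comparison. In these 56587 nuclei Slc12a2 stood at 81.1 CPM, Slc12a5 at 83.7 CPM, Slc12a4 at 7.40 CPM and Slc12a7 at 3.26 CPM, all above the limit that a count of 0 allows. They held 80.0%, 77.9%, 79.4% and 83.8% of the UMIs of these genes, in nuclei with 78.2% of all UMIs.

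Slc12a4 stood at 33.9 CPM (11.0 to 79.1) in the 30 nuclei of the Cajal-Retzius gate, a class too small for the comparisons, from 5 UMIs. Under the enrichment gate, with 246 such nuclei, it stood at 9.43 CPM. The cause was not tested.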

How the results depend on the processing

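No paired analysis was possible because no library is tied to a replicate number of the labels. Class ratios were taken within each library as well, without a test. None of the 7 main ratios turned its direction under an alternative, and 106 of 113 of their alternative values moved by less than the spread between libraries. Many of these alternatives left out a single library or kept the 11 nuclei of the mitochondrial filter, which changed the data little. A value within that spread could still lose its call, as Slc12a2 in immature oligodendrocytes over OPC did (1.32 against 0.97 under the enrichment gate). The neuron over glia ratio of Slc12a5 was 1.56 with gate and check markers used together (988 nuclei) and 1.24 under trimmed-mean scaling, which gave 2.65 for Slc12a2 in choroid plexus over neurons. The enrichment gate, chosen after seeing the data, gave 1.53 for Slc12a2 in mature over immature oligodendrocytes and 0.78 for the neuroblast balance. Of 36 ratios of the 4 members, 2 changed sign under it, both with intervals that span 0: Slc12a2 over neurons went from 0.05 to -0.05 in astrocytes and from -0.05 to 0.25 in neuroblasts. Subtracting the microglial level, which can only raise such a ratio, gave 2.74 for Slc12a2 in mature over immature oligodendrocytes. Nuclei of 3000 to 6000 UMIs gave 1.23 for Slc12a4 in vascular nuclei over neurons. With no minimum of UMIs, calls of lower over all genes were 1082 against 666 in vascular nuclei, 5535 against 3180 in choroid plexus, 1371 against 456 in neuroblasts and 1837 against 1031 in microglia, each over neurons. The cause of the other shifts was not tested. Leaving out each library gave ranges of 0.74 to 0.91 for Slc12a5 in neurons over glia, 3.04 to 3.25 for Slc12a2 in choroid plexus, 1.16 to 1.41 and 1.28 to 1.36 for its oligodendrocyte steps, 2.15 to 2.62 for Slc12a4 and 3.30 to 3.75 for Slc12a7 in vascular nuclei, and 0.06 to 0.23 for the balance. Libraries 1 to 4 alone, also chosen after seeing the data, gave 0.68, 2.84, 1.10, 1.36, 2.31, 3.11 and 0.30 in that order, and leaving out nuclei with a recurring barcode sequence gave 0.83, 3.12, 1.32, 1.30, 2.38, 3.44 and 0.08. The gate of 3 distinct markers passed 132 nuclei and gave no value, and the combined-marker gate and the microglial subtraction gave values only for the ratios named. Depth limits Slc12a7 and Slc12a4 most, with under 50 UMIs in several classes.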
